A study of Homo sapiens with 12 samples.

Results

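The mitochondrial ribosomal proteins were taken as every gene symbol that begins with MRPL or MRPS, followed by a number and at most 1 letter from A to D, and 77 of the 26475 symbols in the count tables met that rule. They were measured by strand-specific mRNA sequencing of SUM159PT, a human triple-negative breast cancer cell line, recovered from tumours that had been grown in female NOD scid gamma mice, 8 weeks old at injection. The 12 libraries, in 4 groups of 3, combined a diet with a sorted population, and the submitters titled the series as a study of whether cycles of a fasting-mimicking diet block breast cancer and its stem cells. The FMD CD24-low group held CD44+CD24-Low cells from mice on the fasting-mimicking diet, which was given on 4 consecutive days a week. The control CD24-low group held CD44+CD24-Low cells from mice on standard diet. The FMD CD24-high group and the control CD24-high group held CD44+CD24-High cells from mice on the same 2 diets. All libraries came from this 1 cell line, sorted with antibodies against human CD24 and CD44, and the labels name no allele or drug. NOD scid gamma mice lack mature lymphocytes and keep myeloid cells, fibroblasts and endothelium, and the labels do not give how many mice stood behind a library.

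Mitochondria keep a ribosome of their own, which resembles that of bacteria and translates the few messages of the mitochondrial genome, all of them for membrane subunits of the respiratory chain and ATP synthase. Its ribosomal RNAs are mitochondrial, but all of its proteins are encoded in the nucleus, made in the cytosol and imported. The small subunit (MRPS proteins) reads the message, and the large subunit (MRPL proteins) joins the amino acids. Compared with a bacterial ribosome it has lost RNA and gained proteins that are found in mitochondria alone. By structure, 50 of the 77 genes encode large-subunit proteins and 26 small-subunit proteins, since MRPS18A and MRPS30 sit in the large subunit despite their names. MRPS36, which the rule also takes, is now known as KGD4, a part of the alpha-ketoglutarate dehydrogenase complex, and was kept as the rule has it. Of the 76 others, 48 have a bacterial counterpart and 28 are specific to mitochondria.

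The promoters of these genes are known for sites of NRF1, of the ETS factor GABP and of YY1, and 4 upstream regions are shown because they span what was measured below: MRPL1 fell most, MRPL30 and MRPL14 fell and have NRF1 letters, and MRPL36 has them too, with a log2 fold change of 0.00. Each line is the last 150 bases before the gene's start in RefSeq on GRCh38.p14, 5′ to 3′ on the gene's strand, with motif matches in capitals. MRPL30 lies at chr2:99181034-99181183, plus strand, MRPL14 at chr6:44127309-44127458, minus strand, MRPL36 at chr5:1799838-1799987, minus strand, and MRPL1 at chr4:77862680-77862829, plus strand. The windows of MRPL36 and MRPL14 lie partly or wholly within the gene's full span, which reaches past the start used.
MRPL30: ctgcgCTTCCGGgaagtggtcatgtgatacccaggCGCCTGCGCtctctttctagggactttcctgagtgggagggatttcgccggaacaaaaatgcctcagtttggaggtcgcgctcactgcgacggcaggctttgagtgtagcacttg
MRPL14: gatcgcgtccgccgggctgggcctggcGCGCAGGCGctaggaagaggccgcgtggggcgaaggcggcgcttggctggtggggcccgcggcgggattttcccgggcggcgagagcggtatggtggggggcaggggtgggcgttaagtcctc
MRPL36: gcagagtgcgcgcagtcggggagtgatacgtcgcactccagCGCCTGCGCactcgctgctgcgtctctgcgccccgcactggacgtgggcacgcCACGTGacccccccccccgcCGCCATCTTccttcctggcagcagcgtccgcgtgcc
MRPL1: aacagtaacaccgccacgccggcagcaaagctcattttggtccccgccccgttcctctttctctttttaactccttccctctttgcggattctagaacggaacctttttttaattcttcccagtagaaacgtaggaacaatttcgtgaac
The letters searched, on both strands, were GCGCANGCG for NRF1, CCGGAAG for ETS, AAGATGGCG for YY1 and CACGTG for an E-box. In the MRPL30 line the capitals mark an ETS match and then an NRF1 match, in the MRPL14 line an NRF1 match, and in the MRPL36 line an NRF1, an E-box and a YY1 match in that order. The MRPL1 line holds none of them. RefSeq promoter windows, from 250 bases before to 50 bases after the start, were found for 69 of the 77 genes. Of these, 28 (40.6%) held the ETS letters, against 17.8% of the windows of all tested genes and 10.7% of all 27305 windows. YY1 letters stood in 13 (18.8%), against 3.71% of tested genes and 1.85% of all windows. NRF1 letters also stood in 13 (18.8%), against 13.9% and 8.05%, and E-boxes in 7 (10.1%), against 9.71% and 7.43%. The median GC content was 60.3% in the windows of the mitochondrial ribosomal proteins, 65% in those of tested genes and 58.3% in all. A match is a description of these letters and was not tied to binding.

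All 77 genes passed the count filter, and 76 of them had at least 100 counts in every library. Libraries held 17736610 to 18579816 counts in the FMD CD24-low group and 29049144 to 47587142 in the other 9. The genes took 0.226% to 0.348% of a library's counts. Levels were expressed as counts per 1000000 (CPM) of the TMM-scaled library total, and levels of different genes were compared per kilobase of coding length. On that scale the median gene stood at 56.9 CPM per kb. MRPL51 (288), MRPL52 (282) and MRPS21 (274), 3 short proteins, were highest, and MRPS31 (9.29) and MRPL1 (10.1) were near the low end. The order depends on the length used: per kilobase of exon, MRPL12, a protein of the flexible stalk that recruits translation factors, named here after its values were seen, ranked 1 of 77 and MRPL51 ranked 3. MRPS24, the counterpart of the bacterial small-subunit protein S3, was lowest at 0.936 CPM per kb, with 4 to 27 counts in a library. A read-through locus, URGCP-MRPS24, overlaps 23.2% of its exon bases and was listed at 0 counts in every library, so how reads of this pair were assigned was not tested, and the level of MRPS24 is uncertain.

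The FMD CD24-low libraries stood apart from the rest in ways whose part in the results below was not tested. On the first principal component (57.4% of the variance) they were separate from the other 9 libraries, and they were the least deep. Of 12 leukocyte markers 10 were tested and 7 rose in FMD CD24-low against control CD24-low cells. Of all 15461 genes tested, 1863 rose and 670 fell in that comparison. The list summed to 707 to 746 CPM in FMD CD24-low libraries, against 133 to 148 CPM in control CD24-low, 146 to 175 CPM in FMD CD24-high and 116 to 176 CPM in control CD24-high libraries. PTPRC, the pan-leukocyte antigen CD45, had 59.9, 49.3 and 44.7 CPM in FMD CD24-low libraries, against 3.23, 3.06 and 2.52 CPM in control CD24-low libraries, and TYROBP was at 0 in all 3 FMD CD24-low libraries. Of 8 fibroblast markers 5 rose (summed 44723 to 66592 CPM in FMD CD24-low libraries, against 18415 to 32375 CPM in control CD24-low libraries), and of 6 endothelial markers 2 rose (20.3 to 40.3 CPM, against 6.77 to 13.3 CPM). Of 8 SUM159 markers 0 rose and 1, KRT18, fell, with a median log2 fold change of -0.05 and sums of 7755 to 9901 CPM in FMD CD24-low libraries, against 7799 to 8561 CPM in control CD24-low libraries. Of 4 epithelial markers 3 had a negative and 1 a positive log2 fold change, with a median of -0.697. By the adjusted p, 1 rose and 0 fell, and the sums were 328 to 342 CPM in FMD CD24-low libraries, against 425 to 426 CPM in control CD24-low libraries. All 8 SUM159 markers were present in every library, CD44 at 667 to 906 CPM in FMD CD24-low libraries, and CD24 was not analysed here. A step that removes mouse reads is not given in the sources used here, so a count may hold mouse reads of a gene whose sequence is alike in both species, and none of the values can be assigned to the tumour cells alone. How much of the printed CPM such reads make up was not tested.

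The diet was accompanied by a small, shared shift in CD24-low cells. Of the 77 genes, 76 had a negative log2 fold change in FMD CD24-low against control CD24-low cells, and the exception, MRPL36, was at 0.00. The changes ran from -0.71 to 0.00 with a median of -0.277, against a median of -0.031 over all 15461 genes tested. At a Benjamini-Hochberg adjusted p below 0.05 in edgeR's quasi-likelihood test, 11 fell and 0 rose. Of all genes tested, 670 (4.33%) fell and 1863 rose. At an unadjusted p below 0.05 were 29 of the 77 (37.7%), against 31% of all genes. In 39 of the 77, all 3 FMD CD24-low libraries lay below all 3 control CD24-low libraries, as they did for 17.8% of all genes. In 0 of the 77 did they lie above, as they did for 3043 of the 15461 genes tested. The number of calls depended on single libraries: it was 0 without FMD CD24-low replicate 1, 1 without FMD CD24-low replicate 2, 3 without control CD24-low replicate 1, 2 without its replicate 2, 1 without its replicate 3, 6 without FMD CD24-high replicate 1, 5 without its replicate 2, and 7 with RLE in place of TMM scaling. In the same order, the share of all genes that fell in each fit was 1.81%, 1.35%, 2.13%, 3.12%, 1.66%, 3.26%, 3.62% and 3.47%. Between 74 and 77 of the genes stayed negative in all 19 alternative settings, in which the median ran from -0.372 to -0.225.

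**Figure D1:**
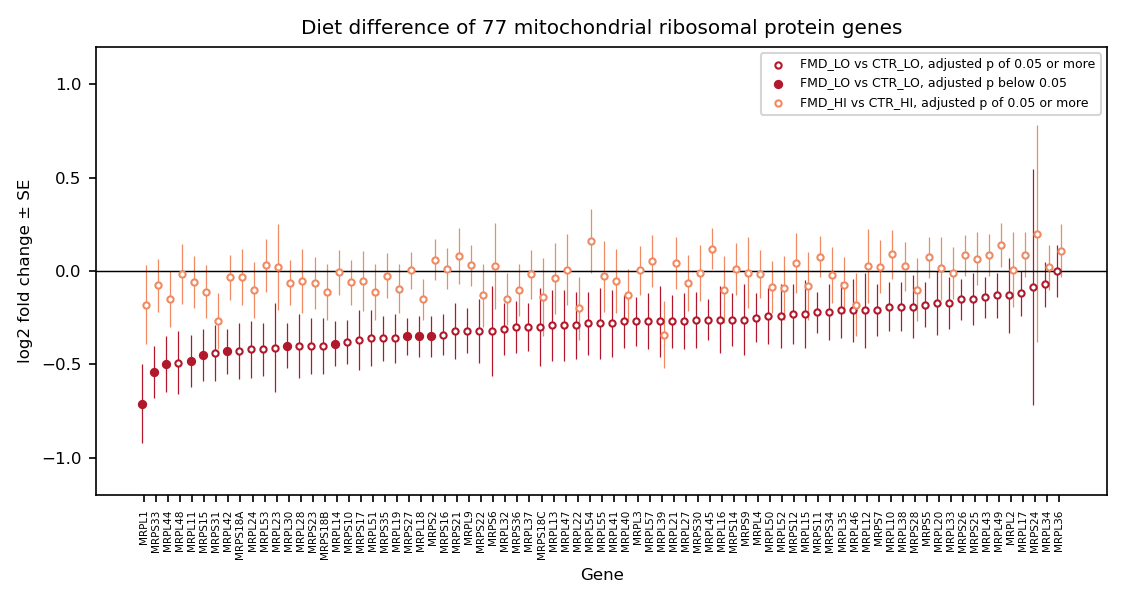
log2 fold change with its standard error (y axis) for each of the 77 genes (x axis, ordered by the CD24-low difference), for FMD over control in CD24-low cells (red) and in CD24-high cells (orange). Filled points, 11 in CD24-low cells and 0 in CD24-high cells, have an adjusted p below 0.05 in edgeR's test, and 76 of the 77 red points lie below 0 while the orange points scatter on both sides.

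The summed level of the 77 genes was 2380, 2568 and 2877 CPM in the FMD CD24-low libraries, against 3072, 3264 and 3219 CPM in the control CD24-low libraries. These groups did not overlap, with means of 2608 ± 251 and 3185 ± 100 CPM (SD, n = 3 each). In CD24-high cells the sum was 2842, 2944 and 3416 CPM on the fasting-mimicking diet, against 3323, 3327 and 2660 CPM on the control diet, and the groups overlapped. Control CD24-high replicate 3 stood below its fellows by as much as the FMD CD24-low libraries stood below their controls, and FMD CD24-low replicate 3 (2877 CPM) was above it. FMD CD24-low libraries gave the lowest of the 12 values for 70 of the 77 genes, 50 of them in replicate 1, 18 in replicate 2 and 2 in replicate 3. Control CD24-high replicate 3 was the lowest library of its group for 67 of the genes, and FMD CD24-high replicate 3 was the highest of its group for 64. In bulk samples, fewer cells that express these genes and less of their RNA per cell cannot be told apart.

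**Figure D2:**
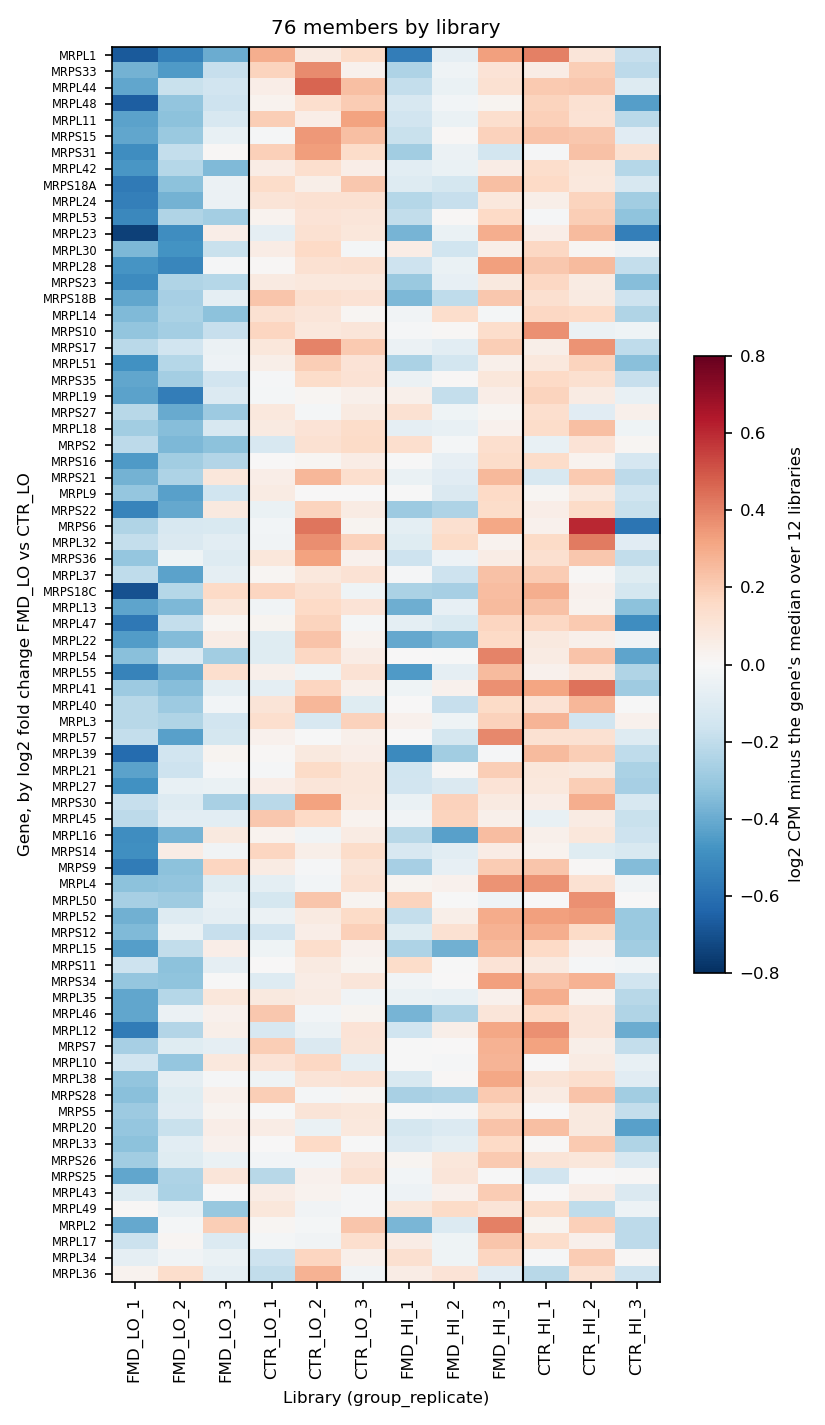
log2 CPM of 76 genes (rows, ordered by the CD24-low diet difference) in the 12 libraries (columns), each as the difference from the gene's median over all libraries (colour, blue lower and red higher). MRPS24 is left out because its counts were too low to colour. FMD_LO_1 and FMD_LO_2 are blue in nearly all rows, CTR_HI_3 is blue in most, FMD_LO_3 is paler and mixed, and FMD_HI_3 is red in most.

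Genes of both subunits leaned the same way. In the large subunit 49 of 50 genes were negative in FMD against control CD24-low cells, with a median of -0.274 and 7 called lower, and in the small subunit 26 of 26 were negative, with a median of -0.319 and 4 called lower. The summed large-subunit level was 1597, 1726 and 1935 CPM in FMD CD24-low libraries, against 2056, 2171 and 2152 CPM in control CD24-low libraries. The small-subunit sum was 767, 823 and 924 CPM, against 996, 1068 and 1047 CPM in the same groups. The ratio of large to small sums was 2.01 to 2.13 over all 12 libraries, and 2.08 to 2.10 in FMD CD24-low libraries against 2.03 to 2.06 in control CD24-low libraries. Genes with a bacterial counterpart (47 of 48 negative, median -0.282, 7 called lower) and genes specific to mitochondria (28 of 28 negative, median -0.276, 4 called lower) had near-equal medians. Nor did the medians differ much by promoter letters: the median change was -0.29 both with and without NRF1 letters, and -0.30 with ETS letters against -0.28 without. It was -0.26 with YY1 letters against -0.29 without, and -0.29 both with and without an E-box. Called genes numbered 4 of 13 with NRF1 letters and 7 of 56 without, and 2 of 28 with ETS letters and 9 of 41 without. They numbered 1 of 13 with YY1 letters and 10 of 56 without, and 0 of 7 with an E-box and 11 of 62 without. The difference between these classes was not tested.

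**Figure D3:**
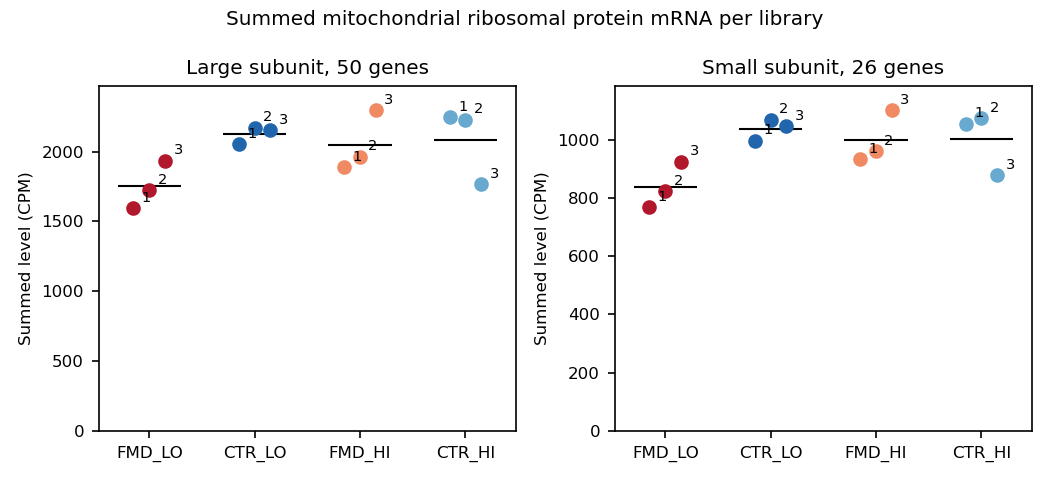
Summed CPM (y axis) of the 50 large-subunit genes (left) and 26 small-subunit genes (right) in each library (points, numbered by replicate) with the group mean (line), for FMD and control CD24-low (LO) and CD24-high (HI) cells. FMD_LO lies below CTR_LO in every library and in both panels, while FMD_HI and CTR_HI overlap.

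Among the small-subunit genes, MRPS33, MRPS27, MRPS15 and MRPS2 fell in FMD CD24-low cells. MRPS2 (chr9:135499965-135504673), the counterpart of bacterial S2, had 36.9, 33.3 and 34 CPM in FMD CD24-low libraries, against 39.1, 46.6 and 47.5 CPM in control CD24-low libraries. The groups did not overlap, although control replicate 1 lay close to the FMD libraries, and the log2 fold change was -0.35 ± 0.11 (SE; edgeR adjusted p = 0.0456). MRPS27 (chr5:72219403-72320240), a pentatricopeptide-repeat protein that bacteria lack, had 78.8, 69.7 and 75.4 CPM in FMD CD24-low libraries, against 97.7, 91.0 and 96.9 CPM in control CD24-low libraries. Every FMD library was below every control library, with a log2 fold change of -0.35 ± 0.10 (edgeR adjusted p = 0.0321). MRPS33 (chr7:141002610-141014952), a small protein specific to mitochondria, had 23.7, 22.5 and 27 CPM in FMD CD24-low libraries, against 34.8, 40.0 and 31.5 CPM in control CD24-low libraries. It had the lowest adjusted p of the 77 genes, 0.0220 in edgeR's test, at a log2 fold change of -0.54 ± 0.14 and without overlap. MRPS15 (chr1:36455718-36464384), the counterpart of bacterial S15, had 41.6, 45.2 and 53.4 CPM in FMD CD24-low libraries, against 55.2, 70.7 and 65.6 CPM in control CD24-low libraries. The groups came within 2 CPM of each other without overlapping, and at an edgeR adjusted p of 0.0497 its fall of 0.45 on the log2 scale was the one nearest the threshold.

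Among the large-subunit genes, 7 fell. MRPL1 (chr4:77862830-77952785), the counterpart of bacterial L1, which forms the stalk beside the tRNA exit site, changed most. It had 6.41, 7.01 and 7.76 CPM in FMD CD24-low libraries, against 12.5, 10.7 and 11.3 CPM in control CD24-low libraries, a log2 fold change of -0.71 ± 0.21 (edgeR adjusted p = 0.0389). Its CD24-high libraries varied more, at 6.96, 9.72 and 12.8 CPM on the fasting-mimicking diet, against 13.5, 10.9 and 8.99 CPM on the control diet, and overlapped. MRPL11 (chr11:66435075-66438848), at the base of the stalk that binds translation factors, had 37.8, 40.5 and 46.5 CPM in FMD CD24-low libraries, against 58.2, 52.8 and 63.6 CPM in control CD24-low libraries (log2 fold change -0.48 ± 0.14, edgeR adjusted p = 0.0281). MRPL44 (chr2:223950854-223967714), a protein with a ribonuclease III fold, had 13.6, 16.0 and 16.3 CPM in FMD CD24-low libraries, against 18.8, 25 and 21.4 CPM in control CD24-low libraries (log2 fold change -0.50 ± 0.15, edgeR adjusted p = 0.0355). Neither MRPL11 nor MRPL44 overlapped between these groups.

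MRPL14 (chr6:44113451-44127452), the counterpart of bacterial L14, which faces the small subunit, had 48.9, 52.3 and 49.6 CPM in FMD CD24-low libraries, against 67.8, 66.7 and 62.9 CPM in control CD24-low libraries (log2 fold change -0.39 ± 0.12, edgeR adjusted p = 0.0423). MRPL18 (chr6:159789812-159798429), a central protuberance protein, had 35.8, 34.3 and 39.8 CPM in FMD CD24-low cells, against 45.6, 46.9 and 48.0 CPM in control CD24-low cells (log2 fold change -0.35 ± 0.11, edgeR adjusted p = 0.0387). Neither gene overlapped between the diets in CD24-low cells. MRPL30 (chr2:99181184-99199561), the counterpart of bacterial L30, had 28.3, 26 and 32.1 CPM in FMD CD24-low cells, against 37.7, 40.4 and 35.8 CPM in control CD24-low cells (log2 fold change -0.40 ± 0.12, edgeR adjusted p = 0.0342). MRPL42 (chr12:93467514-93516214), specific to mitochondria and with a pseudogene, MRPL42P5, at 14 counts in all libraries together, had 24.6, 29 and 26.6 CPM in FMD CD24-low cells, against 35.4, 37.4 and 35.3 CPM in control CD24-low cells (log2 fold change -0.43 ± 0.12, edgeR adjusted p = 0.0250). Both were again without overlap. Each of the 11 called genes missed the threshold when at least 1 of the 12 libraries was left out, and each kept a negative log2 fold change in all 19 alternatives. Over the 12 fits without 1 library, calls ran from 2 for MRPS2 to 8 for MRPS33 and MRPL11. In the other 7 alternatives MRPS2 and MRPS15 were called in 2, and MRPS33 and MRPL11 in 7.

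**Figure D4:**
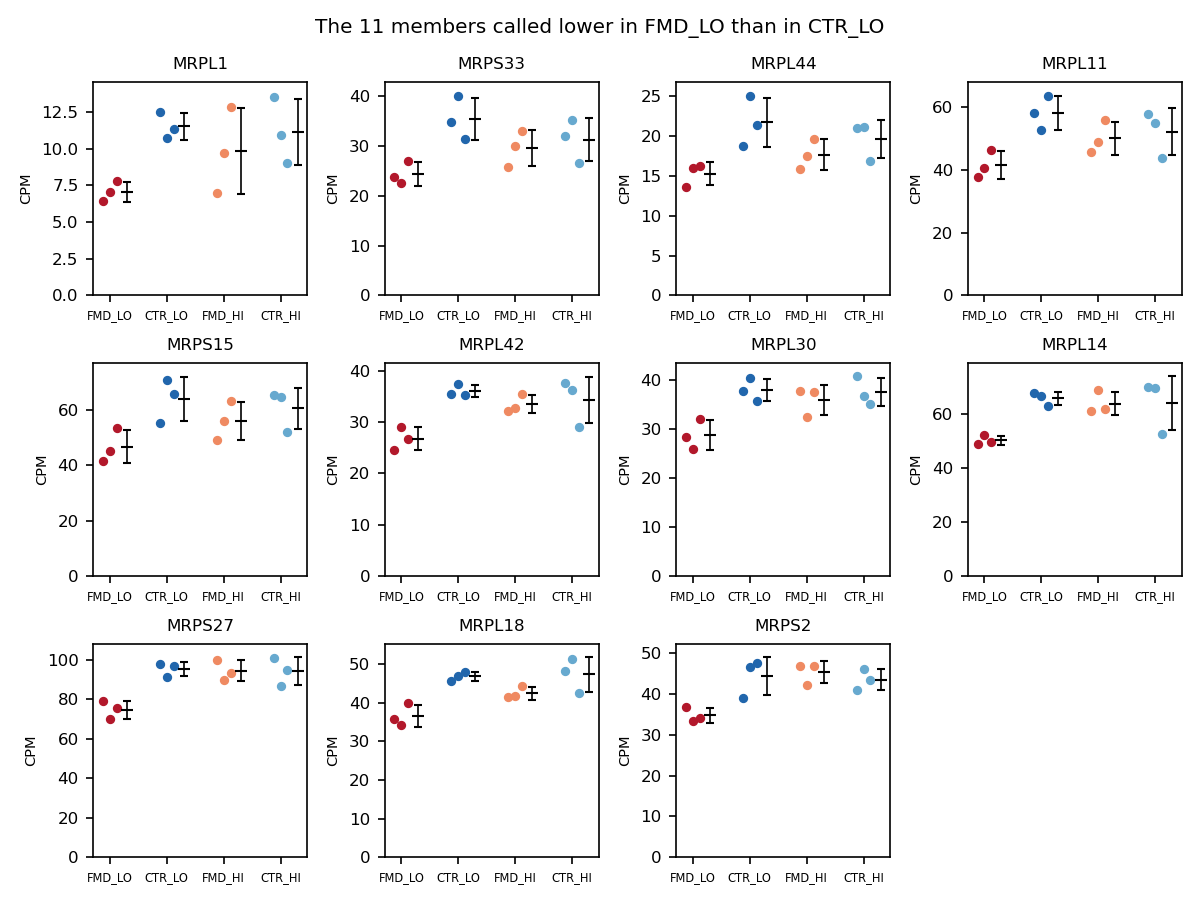
CPM (y axis, from 0) of the 11 genes that fell in FMD CD24-low cells, 1 panel a gene in order of fold change, in FMD and control CD24-low (LO) and CD24-high (HI) libraries (points, with mean and SD of 3 libraries beside them). In every panel the 3 FMD_LO points lie below the 3 CTR_LO points, while FMD_HI and CTR_HI points overlap.

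At the other end, MRPL36 (chr5:1798385-1801434), the smallest of the conserved large-subunit proteins in bacteria, had 54.6, 59.1 and 50.7 CPM in FMD CD24-low libraries, against 46.8, 65.1 and 52.6 CPM in control CD24-low libraries. The groups overlapped fully, with a log2 fold change of 0.00 ± 0.14 (edgeR adjusted p = 0.999), whose sign changed with the settings. MRPL34 (chr19:17292573-17306843), the counterpart of bacterial L34, had 28.7, 29.6 and 29 CPM in FMD CD24-low libraries, against 26.9, 33.9 and 31 CPM in control CD24-low libraries (log2 fold change -0.07 ± 0.12). MRPS24 overlapped too, and its log2 fold change of -0.09 ± 0.63 changed sign when single libraries were left out. The MRPS18 genes are 3 copies of 1 bacterial protein, S18, that occupy different places in the ribosome. MRPS18A had 15.8, 18.6 and 22.6 CPM in FMD CD24-low libraries, against 25.8, 24.1 and 27.1 CPM in control CD24-low libraries, and MRPS18B had 35, 38.9 and 44.5 CPM, against 54.4, 51.1 and 50.6 CPM. Neither overlapped, but at log2 fold changes of -0.43 ± 0.15 and -0.40 ± 0.15 neither passed the threshold (edgeR adjusted p = 0.0725 for MRPS18A and 0.0876 for MRPS18B). MRPS18C, the least abundant of them per kilobase of coding length, had 7.06, 9.77 and 12.8 CPM in FMD CD24-low libraries, against 12.9, 12.5 and 11.2 CPM in control CD24-low libraries, and overlapped (log2 fold change -0.30 ± 0.21).

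In CD24-high cells no gene of the 77 passed edgeR's test between diets: 0 had an adjusted p below 0.05, where 0.0% of all genes did, 0 had an unadjusted p below 0.05, and DESeq2 called 0. Of the 77, 45 were negative and 32 positive in FMD against control CD24-high cells, with a median log2 fold change of -0.017 (all genes -0.004) and a range from -0.34 to 0.20. The lowest were MRPL39 (-0.34 ± 0.18), MRPS31 (-0.27 ± 0.15) and MRPL22 (-0.20 ± 0.17), and the highest were MRPS24 (0.20 ± 0.58), MRPL54 (0.16 ± 0.17) and MRPL49 (0.14 ± 0.12). MRPL39, a mitochondria-specific protein, had 7.97, 9.36 and 11.3 CPM in FMD CD24-high libraries, against 13.5, 13 and 9.88 CPM in control CD24-high libraries. These overlapped only through control replicate 3, the library that was low in most members. The interaction, which tests whether the diet difference itself was different in CD24-low and CD24-high cells, was negative for 76 of the 77, with a median of -0.269 (all genes -0.044). It called 0 of them, where 4.13% of all genes were called, 630 with a positive and 8 with a negative sign. At an unadjusted p below 0.05 were 10 of the 77 (13%, against 15.2% of all genes), and DESeq2 called 0. With same-numbered libraries of a diet as blocks, a fit added after the data were seen, 4 were called and all were negative, where 2.04% of all genes were called with a negative sign. These were the small-subunit genes MRPS33 (-0.46 ± 0.12, edgeR adjusted p = 0.0372), MRPS2 (-0.41 ± 0.12, edgeR adjusted p = 0.0440), MRPS21 (-0.41 ± 0.12, edgeR adjusted p = 0.0460) and MRPS27 (-0.36 ± 0.10, edgeR adjusted p = 0.0474), named after their values were seen. The count fell to 0 without any one of the 3 FMD pairs or control pair 2, to 1 without control pair 1 and to 2 without control pair 3, and the control libraries did not meet the criterion for pairs. Fits without 1 pair called 855 to 2322 of all genes tested, not split by direction. Without the block, MRPS2 shows the spread: its diet difference was -0.35 ± 0.11 in CD24-low cells and 0.06 ± 0.11 in CD24-high cells, and the interaction of -0.41 ± 0.16 had an edgeR adjusted p of 0.202.

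Between populations, most members had higher values in CD24-high than in CD24-low cells under the fasting-mimicking diet, though few passed the test. This comparison shares the FMD CD24-low libraries with the diet comparison above, so it is no separate evidence. Of the 77, 74 had a positive log2 fold change, with a median of 0.228 (all genes 0.061). MRPS2 and MRPS27 rose in FMD CD24-high over FMD CD24-low cells and 0 fell, where 284 of all genes (1.84%) rose and 1879 fell. Of the 77, 18 had an unadjusted p below 0.05 (23.4%, against 26.2% of all genes). In 25 of the 77 all 3 FMD CD24-high libraries lay above all 3 FMD CD24-low libraries, as in 13.1% of all genes. MRPS2 had 46.9, 42.2 and 46.9 CPM in FMD CD24-high libraries, against 36.9, 33.3 and 34 CPM in FMD CD24-low libraries (log2 fold change 0.38 ± 0.11, edgeR adjusted p = 0.0344). MRPS27 had 100.0, 89.8 and 93.2 CPM, against 78.8, 69.7 and 75.4 CPM in the same groups (log2 fold change 0.34 ± 0.10, edgeR adjusted p = 0.0412). In both genes the CD24-high libraries of the fasting-mimicking diet overlapped the control libraries of both populations. Over the 12 fits that left out 1 library, MRPS2 was called in 7 and MRPS27 in 3. Neither was called without any one of FMD CD24-low replicates 2 and 3, FMD CD24-high replicates 1 and 3 and control CD24-high replicate 3, nor with all libraries thinned to 17736610 counts or with only the compared groups fitted. MRPS27 alone was lost without any one of FMD CD24-low replicate 1, FMD CD24-high replicate 2 and control CD24-low replicates 1 and 3, and with RLE scaling or no count filter.

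FMD CD24-high and FMD CD24-low libraries that carry the same replicate number deviated together, so they were also compared as pairs, in a fit added after the data were seen. That pairing was read from the same counts that the fit tests, so its calls are no separate evidence. FMD CD24-high values were above those of the same-numbered FMD CD24-low library for 77, 62 and 72 of the 77 genes in replicates 1, 2 and 3, and for 59 in all 3 pairs, as for 5414 of the 15461 genes tested. In control pairs 1, 2 and 3 the CD24-high value was the higher one for 59, 42 and 2 of the 77. It was so in all 3 control pairs for 1 of them, as for 1409 of the 15461 genes tested. The set thus also moved together from pair to pair on the control diet. With the number as a block within each diet, 18 of the 77 rose in FMD CD24-high over FMD CD24-low cells and 0 fell (edgeR adjusted p below 0.05), where 10.3% of all genes rose. They were 11 large-subunit and 7 small-subunit genes, led by MRPS27 (0.34 ± 0.07, edgeR adjusted p = 0.00545), MRPS2 (0.38 ± 0.08, edgeR adjusted p = 0.00547) and MRPL14 (0.34 ± 0.09, edgeR adjusted p = 0.0126). This count rested on single pairs: it was 1, 2 and 4 without FMD pair 1, 2 or 3, and 21, 13 and 41 without control pair 1, 2 or 3, since all libraries share 1 estimate of the spread. Over all genes tested, calls, not split by direction, numbered 2444, 2152 and 2538 without FMD pair 1, 2 or 3. They numbered 4391, 3827 and 6044 without control pair 1, 2 or 3.

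Without the pairs, the largest positive log2 fold changes in that comparison were those of MRPL1 (0.48 ± 0.21) and MRPL4 (0.39 ± 0.13), which were not called, and of MRPS2. MRPL46, MRPL39 and MRPL36, at -0.03, -0.02 and 0.00, were the 3 without a positive value. MRPL46 is a mitochondria-specific protein of the central protuberance, and it had 9.13, 9.93 and 12.6 CPM in FMD CD24-high libraries, against 8.84, 11.4 and 12.1 CPM in FMD CD24-low libraries. Under the control diet no difference between populations passed the test, with or without the block. With the block but without control pair 3, 4 of the 77 were called, as were 502 of all 15461 genes tested. Control CD24-high against control CD24-low cells gave 0 calls, where 0.0% of all genes were called, 0 at an unadjusted p below 0.05 and 0 by DESeq2, with 58 of 77 negative, a median of -0.045 (all genes -0.003) and a range from -0.19 to 0.15. The lowest values in that contrast were those of MRPL45 (-0.19 ± 0.11), MRPS21 (-0.19 ± 0.15) and MRPS14 (-0.18 ± 0.14), and the highest were those of MRPL4 (0.15 ± 0.13), MRPL41 (0.14 ± 0.17) and MRPS34 (0.11 ± 0.15).

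The other genes of mitochondrial protein synthesis mostly had the same sign in FMD against control CD24-low cells. Of all genes tested, 53.2% were negative and 4.33% fell in that comparison, and the calls of these short lists are to be read beside that share. The 6 mitoribosomal proteins that carry other names, DAP3, PTCD3, AURKAIP1, CHCHD1, GADD45GIP1 and ICT1, were all negative (median -0.313, 0 called). CHCHD1, a small-subunit protein singled out after its values were seen, was lowest among them, with 15.1, 17.6 and 23.7 CPM in FMD CD24-low libraries, against 26, 28.8 and 28.1 CPM in control CD24-low libraries, and just missed the threshold (log2 fold change -0.56, edgeR adjusted p = 0.0507). Of the 28 assembly and rRNA modification factors 24 were negative (median -0.23) and NOA1, a GTPase of ribosome assembly, fell (-0.30 ± 0.10, edgeR adjusted p = 0.0479). All 17 translation factors were negative (median -0.282), and GFM2, which splits the ribosome after termination, fell (-0.42 ± 0.11, edgeR adjusted p = 0.0233), as did C12orf65, a release factor that rescues stalled ribosomes (-0.57 ± 0.16, edgeR adjusted p = 0.0299). Of the 20 genes in the list of mitochondrial aminoacyl-tRNA synthetases, which load tRNAs, 19 were negative (median -0.256), and NARS2 (-0.47 ± 0.13) and GATB (-0.47 ± 0.14) fell. GATB, like QRSL1 and GATC in that list, is not itself a synthetase. Of the 10 genes of mitochondrial DNA transcription and replication, 8 were negative (median -0.27), and MGME1, a nuclease (-0.55 ± 0.13), and TEFM, an elongation factor (-0.55 ± 0.15), fell.

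The direction was not limited to the mitochondrial ribosome. Of 78 cytosolic ribosomal protein genes tested, 75 were negative with a median of -0.266. Of the 78, 5 fell, where 4.33% of all genes tested fell. Among them were RPS15A (-0.52 ± 0.12), RPS7 (-0.41 ± 0.12) and RPS2 (-0.45 ± 0.14), and RPL10L, a testis paralogue of RPL10, rose (3.74 ± 0.73). Of 78 nuclear genes of the respiratory chain and ATP synthase, 70 were negative with a median of -0.279. Of these 78, 3 fell, again beside 4.33% of all genes: UQCRH (-0.47 ± 0.13), NDUFC2 (-0.54 ± 0.16) and NDUFB3 (-0.51 ± 0.15). In CD24-high cells the diet medians of the same lists lay between -0.079 and 0.057, with 0 calls in each, where 0.0% of all genes were called. The genes encoded by mitochondrial DNA were not analysed here.

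**Figure D5:**
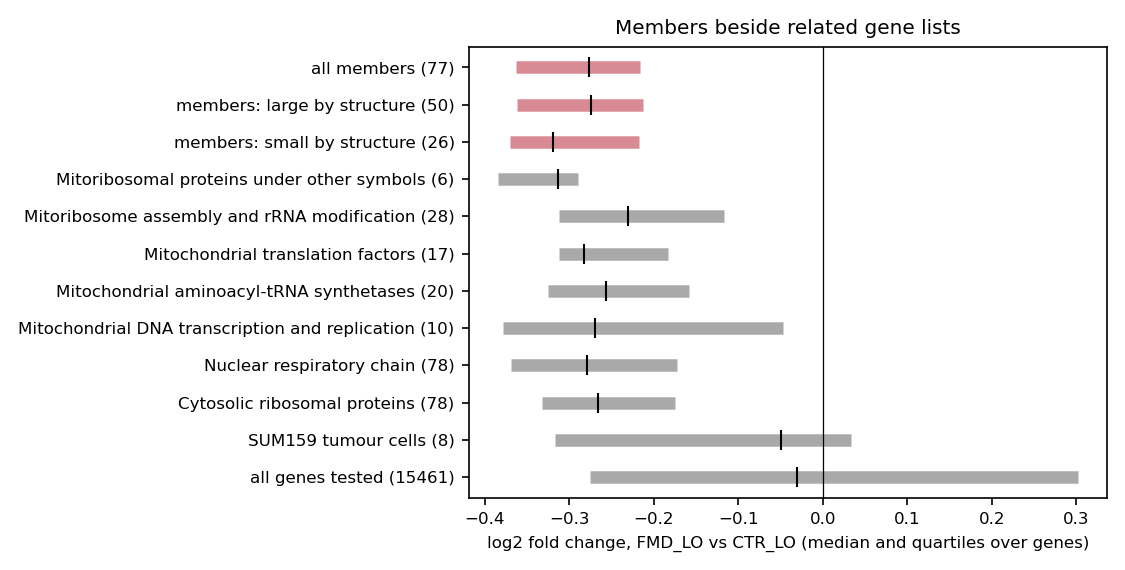
Median (tick) and quartiles (bar) of the log2 fold change in FMD over control CD24-low cells (x axis) for the 77 mitochondrial ribosomal protein genes, their subunits (red), related gene lists, SUM159 markers and all genes tested, with the number of genes in parentheses. The medians of the ribosomal, translation and respiratory lists lie between -0.319 and -0.23, and that of all genes at -0.031.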

How the data were processed

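Cells sorted from tumours were sequenced as stranded polyadenylated RNA, per the labels' protocols, and aligned with STAR to hg38, per the submitters' processing notes, with STAR's version, the annotation and any removal of mouse reads not given in the sources used here, so counts may include reads of the mouse host. Each library's deposited file held raw counts per gene in 3 columns, of which the reverse-strand one was taken, as this kit requires. The opposite strand held 1.59% to 1.75% of stranded counts.

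One fit over all 4 groups used edgeR 4.0.16 in R 4.3.3 (robust quasi-likelihood fit with TMM scaling and filterByExpr), which kept 15461 of 26475 genes and left 8 residual degrees of freedom. A call needed an adjusted p (Benjamini-Hochberg, all 15461 genes) below 0.05 and no particular fold. Nothing says that replicates came from separate mice, so p-values measure the spread between these samples. Simulated data held 100 genes with a log2 change of 1 and 100 with one of 0.5, in either direction. On them, the FMD CD24-low against control CD24-low comparison over 15461 genes called 56% of the former and 6% of the latter. It made 64 calls in all, against 2533 in the real data, so these shares are not the detection rates of the real comparison. Alternatives were either-strand counts, RLE scaling, no filter, a replicate block, the compared groups alone, libraries thinned to equal depth, DESeq2 1.42.0, and each library left out. The labels do not say that a replicate number marks a shared mouse, batch or day. Deviations from the group means correlated at 0.285 to 0.485 in the 3 same-numbered FMD pairs of CD24-high and CD24-low libraries, all above 0.1, at 0.0373 to 0.522 in the 3 control pairs, and at -0.221 to 0.0824 across diets. The medians were 0.444 in the FMD pairs and 0.445 in the control pairs. By the criterion of 0.1 for every pair, numbers pair the FMD libraries alone, and a block within each diet, also without each pair, was added after the data were seen. As the pairing was read from the same counts that the block fits test, their calls are no separate evidence.

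Named were all called genes, the 3 lowest and 3 highest log2 fold changes of each contrast, the MRPS18 copies, the 3 highest and 3 lowest levels per coding length, and up to 4 called genes of each related list and contrast. The members and lists were chosen with earlier results of these data known. Promoters are from RefSeq (GRCh38.p14), gene positions likewise, and lengths from GENCODE. MRPL53 shares 45.2% of its exon bases with CCDC142 on its strand, and pseudogenes of MRPL42, MRPL45 and MRPS31 are listed beside them, so reads of these 4 genes may be split.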

Additional observations from a re-analysis of the deposited data

How the results depend on the processing

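The count of 11 genes that fell in FMD against control CD24-low cells was 7 with RLE scaling and 0 to 15 when 1 library was left out, and 8 to 10 in the other alternatives. The share of all genes that fell was 4.33% in the main fit and 3.47% with RLE scaling. It ran from 1.35% to 5.46% when 1 library was left out, and from 2.82% to 5.43% in the other alternatives. For FMD CD24-high over FMD CD24-low cells the 2 calls became 1 with RLE scaling or no count filter, 0 with only the compared groups or thinned libraries, and 0 to 2 when 1 library was left out. The other 3 comparisons called 0 in each of these 19 alternatives that could give them. With a block within each diet, added after the data were seen, 18 rose in FMD CD24-high over CD24-low cells (1, 2 and 4 without FMD pair 1, 2 or 3, and 21, 13 and 41 without control pair 1, 2 or 3), the interaction called 4 (0 to 2 when 1 pair was left out), and control CD24-high over CD24-low cells 0 (0 to 4, the 4 without control pair 3). Over all genes tested, fits without 1 pair called 2152 to 6044, 855 to 2322 and 0 to 502 in these 3 comparisons. Comparisons between diets cannot be made within such blocks. With 1 block per number across diets, which did not deviate together, 10 genes fell, 9 of them shared with the 11, and 2 rose between populations. The sign of values near 0 changed. MRPL36 had -0.0211 without the filter and -0.110 to 0.125 over left-out libraries in FMD against control CD24-low cells, and 0.0300 and -0.0391 to 0.0642 in FMD CD24-high over CD24-low cells. In the same population comparison MRPL39 had 0.0120 without the filter and -0.170 to 0.137 over left-out libraries, and MRPL46 had 0.0084, 0.0479 with thinned libraries, and -0.175 to 0.0843. Over left-out libraries MRPS24 ran from -0.974 to 0.231 between diets in CD24-low and from -0.220 to 0.657 in CD24-high cells, MRPL54 from -0.0048 to 0.319 between diets in CD24-high cells, and MRPL41 from -0.0053 to 0.338 between populations on the control diet. The cause was not tested. MRPS24 rests on 171 counts in all, and with thinned libraries 8 genes fell, 6 of them shared with the 11.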

Other observations

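MRPL46 and MRPS11, chosen after their values were seen, lie head to head on chromosome 15, with MRPL46 at chr15:88459478-88467388 on the minus strand and MRPS11 at chr15:88467708-88480776 on the plus strand. Both had like diet values in CD24-low cells, at log2 fold changes of -0.21 ± 0.17 for MRPL46 and -0.22 ± 0.11 for MRPS11. In FMD CD24-high over FMD CD24-low cells they stood at -0.03 ± 0.17 for MRPL46 and 0.27 ± 0.11 for MRPS11, and neither was called in any comparison.

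The pseudogenes listed beside their parent genes had 1479 counts over all 12 libraries for MRPL45P2, 1773 for MRPS31P5 and 14 for MRPL42P5.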
